A study of Morchella importuna with 4 samples.

Results

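Aminoacyl-tRNA synthetases are the enzymes that load each amino acid onto its own tRNA before the ribosome can use it. The genes described here were every row of the expression table of Morchella importuna whose gene description or best protein match read tRNA synthetase, tRNA-synthetase or tRNA ligase once text in square brackets had been removed, in upper or lower case. The rule found 35 of the 11599 genes in the table. It used only the wording of the annotation and no expression value. Of these genes, 34 named an amino acid, and all 20 amino acids of the genetic code were named by at least 1 gene. The remaining gene, JGI 486196, was described only as a tRNA ligase. In Saccharomyces cerevisiae the enzyme of that name joins the exons of spliced tRNAs and carries no amino acid, so JGI 486196 is counted with the 35 genes and described apart.

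The enzymes fall into class I and class II by the fold of their catalytic domain. A fungal cell makes protein in the cytosol and, separately, inside mitochondria, and both places need a full set of charged tRNAs. Some amino acids are served by separate nuclear genes for the cytosolic and the mitochondrial enzyme, others by a single gene whose products reach both places. Only 2 of the descriptions stated a compartment, JGI 515774 (a cytoplasmic asparaginyl-tRNA synthetase) and JGI 576508 (a mitochondrial glycyl-tRNA synthetase). The other 33 stated none, and none was assigned to them here. For 11 amino acids there were 2 or more genes, and for 9 there was 1.

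The study compared 2 areas at the stage of sclerotial initiation (SI). SII was the sclerotium-forming mycelium in the centre of the plate, and SIO the hyphae of the remaining, outer area. Both areas came from 1 strain grown in the dark on potato dextrose agar (PDA) at 20 °C for 4 days, and SII was taken within a radius of 2 cm from the centre. There were 2 SII libraries and 2 SIO libraries, and each library pooled mycelium of 2 plates of that strain. The paper describes the areas as parts of the same plate. The labels do not say which SII library shares plates with which SIO library, so the main test did not pair them. A list of genes that defines sclerotial tissue was not used here, so the labels were not checked against markers.

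The columns of the table named the area but not which of its labelled samples, so the libraries are called SII-1, SII-2, SIO-1 and SIO-2 by column number. Between 23108142 and 27993281 reads on genes lay behind a library. The log2 difference between libraries of the same area had a standard deviation, over 8906 tested genes, of 0.68 for SII and 0.23 for SIO, so SII-1 and SII-2 were the further apart. The authors' mean read counts for SIO also contained reads of a further library, which is described among the other observations and was not used as a replicate. In bulk RNA of a plate area, fewer cells of one kind and less RNA per cell cannot be told apart.

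Transcripts of the synthetases were scarcer in SII. Summed over the 35 genes, they reached 739 FPKM in SII-1 and 952 FPKM in SII-2, against 3249 FPKM in SIO-1 and 3383 FPKM in SIO-2 (FPKM is the number of sequenced fragments on a gene, scaled by gene length and by library size). They made up 0.0804% and 0.103% of all summed FPKM in the SII libraries, against 0.408% and 0.424% in the SIO libraries. The median gene stood at 10.3 and 16.9 FPKM in SII, against 94.0 and 99.9 FPKM in SIO. Over the same libraries the median of all tested genes was 21.3 and 20.6 FPKM in SII, against 23.4 and 22.4 FPKM in SIO. Both SII libraries lay below both SIO libraries in 31 of the 35 genes, where 43.9% of all tested genes did so. Both lay above in 3, where 35.6% of all tested genes did so, and JGI 532015 alone overlapped.

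**Figure D1:**
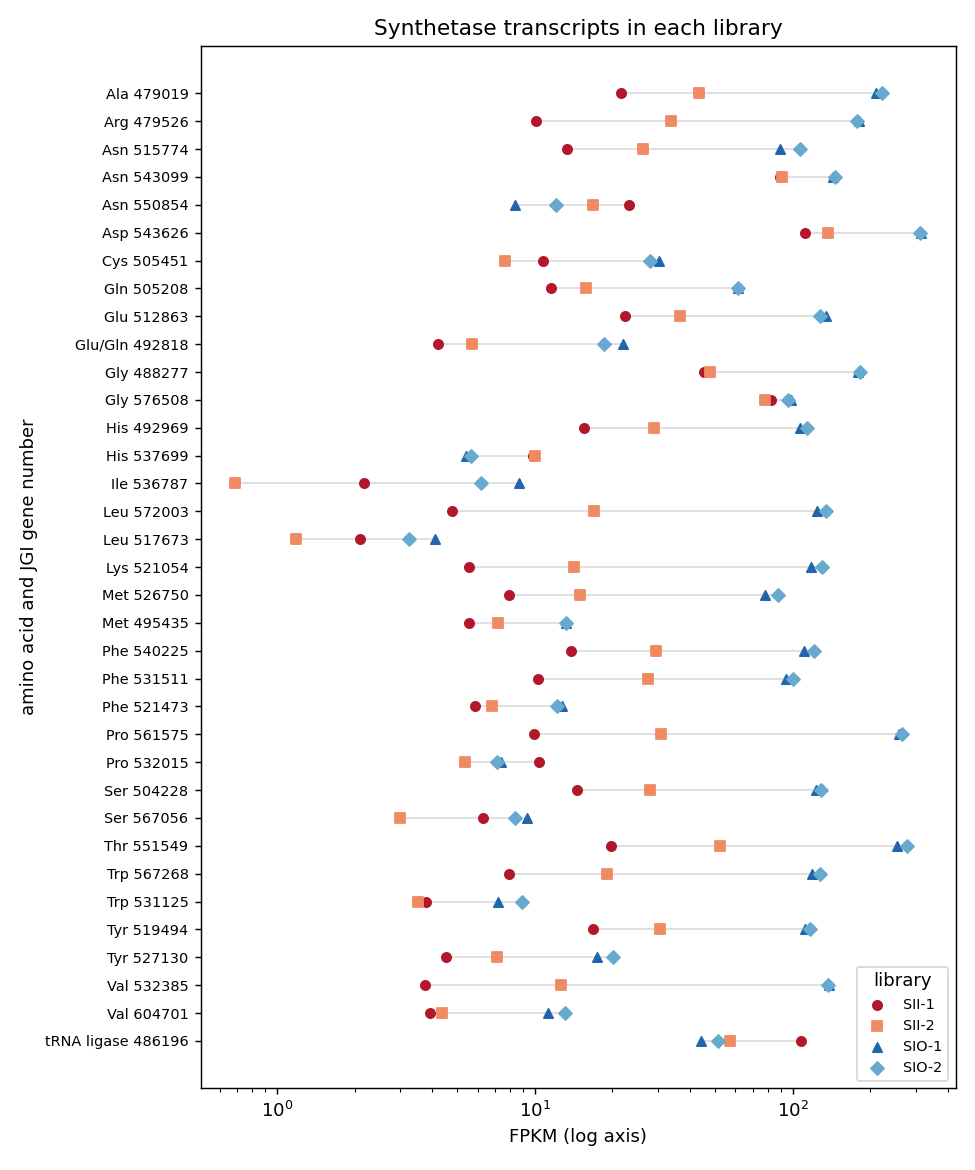
FPKM of the 35 genes in each library on a log axis, 1 gene per row with the amino acid and the JGI number, and 1 symbol per library (SII-1, SII-2, SIO-1, SIO-2). In 31 rows both SII symbols lie left of both SIO symbols, and the SIO symbols nearly coincide in most rows while the SII symbols are often apart.

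Gene by gene, 19 of the 35 were lower in SII and 0 were higher by limma on log2(FPKM + 1). A call needed an adjusted p (Benjamini-Hochberg) under 0.01 together with a log2 fold change of 1 or more in size. Among all 8906 genes tested, 12.2% were called lower and 10.3% higher (1084 and 914 genes; 743 and 981 after median-ratio scaling). Limma-voom on the recovered reads called the same 19 genes lower and 0 higher (12.3% and 9.93% of all tested genes). At an unadjusted p under 0.05, 29 of the 35 synthetase genes had a negative and 2 a positive log2 fold change, where 33.1% of all tested genes had a negative and 25.4% a positive one. The median log2 fold change was -1.93 over the 35 genes and -0.11 over all tested genes. All log2 fold changes here are SII over SIO on the log2(FPKM + 1) scale, which understates the change of weakly expressed genes. The 19 calls rested on both SIO libraries: without SIO-1 or without SIO-2, 0 of the 35 genes passed the adjusted threshold, although 25 and 24 genes still had a negative log2 fold change with an unadjusted p under 0.05. Of all tested genes 0.0337% were called lower and 0.853% higher without SIO-1, and 0.0225% lower and 0.966% higher without SIO-2. Without SII-1 there were 26 of the 35 lower and 0 higher, where 21.6% of all tested genes were lower and 14.9% higher. Without SII-2 there were 25 lower and 2 higher, where 24.0% of all tested genes were lower and 20.0% higher. An exact permutation test of 2 libraries against 2 cannot go below a two-sided p of 0.33, so no single-gene permutation test is given.

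The 19 genes called lower had log2 fold changes between -4.11 and -1.33 with a median of -2.32. As a ratio of mean FPKM, SIO was 2.52 to 16.9 times SII, with a median of 4.97. Their adjusted p ran between 0.00272 and 0.00953. They served 17 of the 20 amino acids, and the 3 without a called gene were Arg, Ile and Thr. In each library, the genes were ranked among all tested genes by FPKM. The median called synthetase stood at percentile 35.9 and 56.3 in the SII libraries, against percentile 85.1 and 86.3 in the SIO libraries. These genes were called because SIO exceeded SII, so this order is largely set by that choice. The median of all synthetase genes, called or not, stood at percentile 33.3 and 45.3 in SII, against 81.7 and 82.8 in SIO. The called genes kept a similar spread among themselves: the most abundant exceeded the least abundant 29.9 and 31.6 times in SII, against 28.0 and 23.8 times in SIO.

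**Figure D2:**
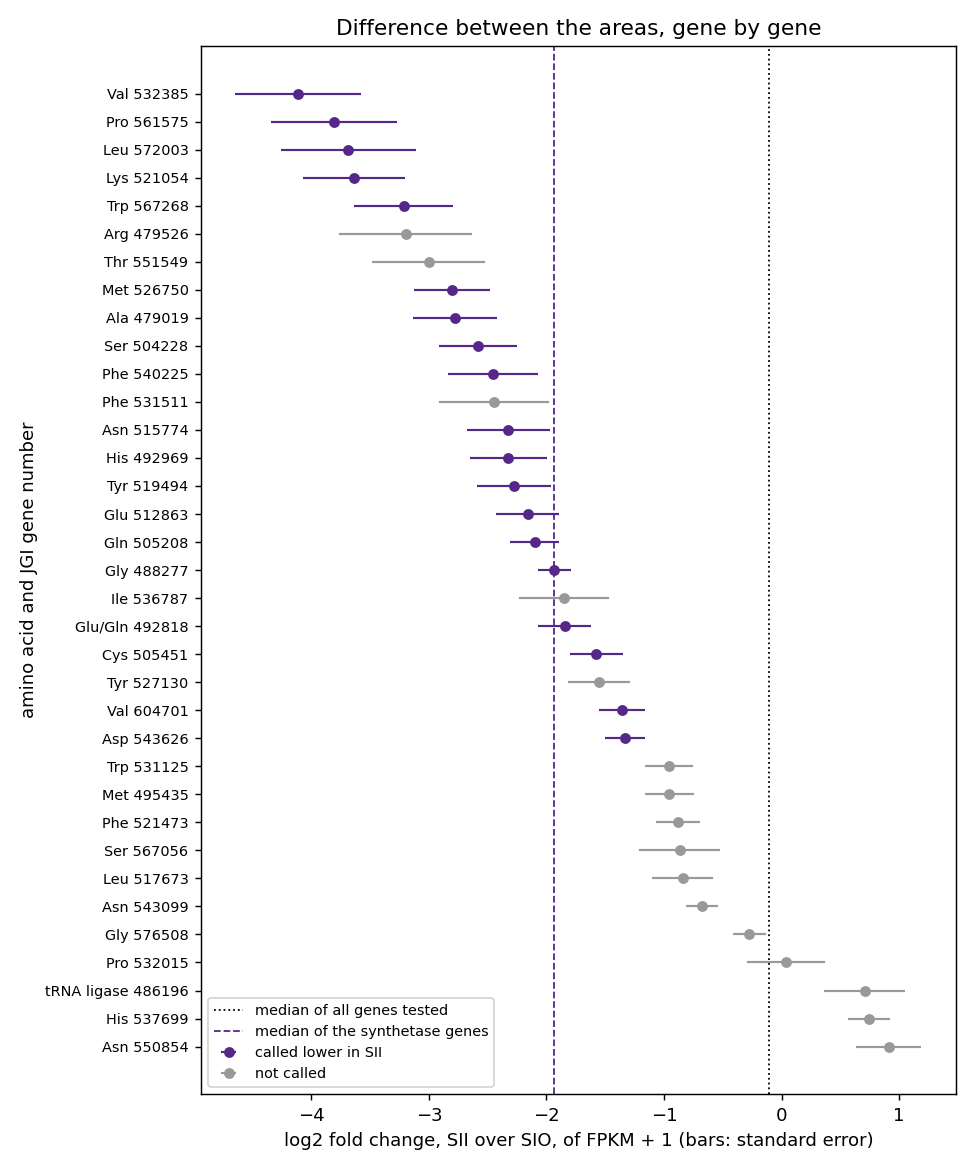
Log2 fold change of FPKM + 1, SII over SIO, for each of the 35 genes, ordered by size, with the standard error from limma as bars. Filled purple points are the 19 genes called lower and grey points the 16 not called; the dashed line is the median of the 35 genes (-1.93) and the dotted line that of all tested genes (-0.11).

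Class I enzymes load mostly aliphatic and sulphur-containing residues, with arginine, glutamate, glutamine, tryptophan and tyrosine, and 10 of the 16 class I genes were lower in SII, with a median log2 fold change of -1.97 over the class. The valyl-tRNA synthetase JGI 532385, which loads valine, had the most negative value of the whole set. It was at 3.75 and 12.6 FPKM in SII, against 139 and 138 FPKM in SIO (log2 fold change -4.11 ± 0.53, adjusted p = 0.00661). The leucyl-tRNA synthetase JGI 572003 was at 4.76 and 16.9 FPKM in SII, against 125 and 135 FPKM in SIO (log2 fold change -3.68 ± 0.57, adjusted p = 0.00949). The tryptophanyl-tRNA synthetase JGI 567268, which loads a residue that is rare in most proteins, was at 7.91 and 19.1 FPKM in SII, against 119 and 128 FPKM in SIO (log2 fold change -3.22 ± 0.42, adjusted p = 0.00675). In these 3 genes SII-2 was more than 2 times SII-1, yet both SII libraries stayed far below both SIO libraries.

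The methionyl-tRNA synthetase JGI 526750 loads the residue that starts every protein. It was at 7.97 and 15.0 FPKM in SII, against 78.3 and 87.6 FPKM in SIO (log2 fold change -2.81 ± 0.32). The tyrosyl enzyme JGI 519494 was at 16.8 and 30.7 FPKM in SII, against 112 and 117 FPKM in SIO (-2.28 ± 0.31). The glutamyl enzyme JGI 512863 was at 22.3 and 36.5 FPKM in SII, against 134 and 128 FPKM in SIO (-2.16 ± 0.27). The glutaminyl enzyme JGI 505208 was closer between the SII libraries, at 11.6 and 15.8 FPKM in SII, against 61.3 and 61.4 FPKM in SIO (-2.10 ± 0.21). JGI 492818, described as a glutamyl/glutaminyl-tRNA synthetase, was at 4.20 and 5.70 FPKM in SII, against 22.0 and 18.6 FPKM in SIO (-1.84 ± 0.23). The cysteinyl enzyme JGI 505451, the only gene for cysteine, was at 10.7 and 7.66 FPKM in SII, against 30.3 and 28.0 FPKM in SIO (-1.58 ± 0.22). It was also the only called gene in which SII-2 lay below SII-1. The adjusted p of these 6 genes lay under 0.01 as for all 19.

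Class II enzymes load mostly small and polar residues together with proline, histidine, lysine and phenylalanine, and 9 of the 18 class II genes were lower in SII, with a median log2 fold change of -2.13. The prolyl-tRNA synthetase JGI 561575 was at 9.97 and 30.9 FPKM in SII, against 257 and 266 FPKM in SIO (log2 fold change -3.81 ± 0.54, adjusted p = 0.0078). The lysyl-tRNA synthetase JGI 521054, the only gene for lysine, was at 5.58 and 14.2 FPKM in SII, against 117 and 129 FPKM in SIO (log2 fold change -3.64 ± 0.43, adjusted p = 0.00585). The glycyl-tRNA synthetase JGI 488277 had the smallest adjusted p of the set, 0.00272, and its libraries lay close together within each area. It was at 45.3 and 47.9 FPKM in SII, against 179 and 182 FPKM in SIO (log2 fold change -1.93 ± 0.14). The aspartyl-tRNA synthetase JGI 543626, the only gene for aspartate, was the most abundant synthetase transcript of every library. It was at 112 and 137 FPKM in SII, against 315 and 312 FPKM in SIO, and had the least negative log2 fold change of the called genes (-1.33 ± 0.17, adjusted p = 0.00639).

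The other class II genes called lower sat between these. The alanyl enzyme JGI 479019, the only gene for alanine, was at 21.5 and 43.3 FPKM in SII, against 209.7 and 222 FPKM in SIO. The seryl enzyme JGI 504228 was at 14.6 and 27.9 FPKM in SII, against 124 and 129 FPKM in SIO. The histidyl enzyme JGI 492969 was at 15.5 and 29.0 FPKM in SII, against 107 and 114 FPKM in SIO. In all 3, each SIO library was more than 3 times the higher SII library. The cytoplasmic asparaginyl enzyme JGI 515774 was at 13.3 and 26.2 FPKM in SII, against 89.5 and 107 FPKM in SIO. The log2 fold changes of these 4 genes were -2.78, -2.58, -2.32 and -2.32, and SII-2 lay above SII-1 in each.

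Phenylalanyl-tRNA synthetase of the cytosol is built from an alpha and a beta chain that are encoded by separate genes. The descriptions of JGI 540225 and JGI 531511 stated no compartment, and none was assigned. The beta chain JGI 540225 was at 13.8 and 29.6 FPKM in SII, against 110.4 and 121 FPKM in SIO (log2 fold change -2.45 ± 0.38, adjusted p = 0.00953). The alpha chain JGI 531511 was at 10.3 and 27.5 FPKM in SII, against 94.0 and 99.9 FPKM in SIO (log2 fold change -2.45 ± 0.47, adjusted p = 0.0156). The beta chain passed the threshold and the alpha chain did not, with the same log2 fold change to 2 decimals. The ratio of beta to alpha FPKM was 1.34 and 1.08 in SII, against 1.17 and 1.21 in SIO, so the areas overlapped in this ratio.

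Of the 16 genes not called, 5 had a log2 fold change of -1 or lower, and the alpha chain was one of them. The arginyl-tRNA synthetase JGI 479526, the only gene for arginine, was at 10.1 and 33.6 FPKM in SII, against 180.2 and 178 FPKM in SIO (log2 fold change -3.20 ± 0.57, adjusted p = 0.0128). The threonyl-tRNA synthetase JGI 551549, the only gene for threonine, was at 19.8 and 52.5 FPKM in SII, against 255 and 278 FPKM in SIO (log2 fold change -3.002 ± 0.48, adjusted p = 0.0101). SII-2 was 3.32 times SII-1 in the arginyl gene and 2.65 times SII-1 in the threonyl gene, yet both SII libraries lay below both SIO libraries in each. The isoleucyl-tRNA synthetase JGI 536787, the only gene for isoleucine, was at 2.18 and 0.691 FPKM in SII, against 8.69 and 6.21 FPKM in SIO (log2 fold change -1.85 ± 0.38, adjusted p = 0.0183). It was the only gene of the set below 1 FPKM in a library, and SII-2 held 49 reads of it. The tyrosine-tRNA ligase JGI 527130 was at 4.54 and 7.13 FPKM in SII, against 17.4 and 20.1 FPKM in SIO (log2 fold change -1.55 ± 0.26, adjusted p = 0.0114). With an adjusted p under 0.05 in place of 0.01, these 5 joined the called genes, giving 24 lower and 0 higher, where 21.1% of all tested genes were lower and 15.6% higher.

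A further 7 genes had log2 fold changes between -1 and 0 and were not called. Of these, 6 belonged to amino acids that had a more abundant gene, and most were weakly expressed in both areas. The leucyl gene JGI 517673 was at 2.101 and 1.18 FPKM in SII, against 4.09 and 3.27 FPKM in SIO. The methionyl gene JGI 495435 was at 5.55 and 7.23 FPKM in SII, against 13.3 and 13.2 FPKM in SIO. The phenylalanyl gene JGI 521473 was at 5.88 and 6.81 FPKM in SII, against 12.8 and 12.2 FPKM in SIO. All 3 had SII libraries below SIO, with log2 fold changes of -0.84, -0.95 and -0.88. The seryl gene JGI 567056 was at 6.29 and 2.998 FPKM in SII, against 9.31 and 8.40 FPKM in SIO (log2 fold change -0.87). The tryptophanyl gene JGI 531125 was at 3.77 and 3.52 FPKM in SII, against 7.19 and 8.95 FPKM in SIO (log2 fold change -0.96). At these levels a pseudocount of 1 takes up a visible part of the fold change.

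The remaining members of this group were abundant. JGI 576508, the mitochondrial glycyl-tRNA synthetase, was at 82.1 and 78.1 FPKM in SII, against 98.4 and 96.0 FPKM in SIO (log2 fold change -0.28 ± 0.14, adjusted p = 0.166). JGI 543099, whose best match names the asparaginyl-tRNA synthetase Slm5, the mitochondrial enzyme in Saccharomyces cerevisiae, was at 89.6 and 91.0 FPKM in SII, against 143 and 147 FPKM in SIO (log2 fold change -0.68 ± 0.14, adjusted p = 0.0179). Libraries of the same area lay close together in both genes, and both SII libraries stayed below both SIO libraries.

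The 4 genes with a positive log2 fold change were not called by limma with all libraries. The asparaginyl gene JGI 550854 was at 23.2 and 16.8 FPKM in SII, against 8.35 and 12.1 FPKM in SIO (log2 fold change 0.91 ± 0.28, adjusted p = 0.0509). The histidyl gene JGI 537699 was at 9.85 and 10.1 FPKM in SII, against 5.42 and 5.67 FPKM in SIO (log2 fold change 0.74 ± 0.18, adjusted p = 0.027). In both, the SII libraries lay above the SIO libraries. The tRNA ligase JGI 486196 was at 108 and 57.0 FPKM in SII, against 44.2 and 51.5 FPKM in SIO (log2 fold change 0.71 ± 0.34, adjusted p = 0.153). Without SII-2 the log2 fold change was 1.13 in JGI 550854 and 1.16 in JGI 486196, against 0.69 and 0.25 without SII-1. The prolyl gene JGI 532015 was at 10.4 and 5.37 FPKM in SII, against 7.42 and 7.14 FPKM in SIO (log2 fold change 0.04 ± 0.33, adjusted p = 0.931), and without SII-1 its log2 fold change was -0.38.

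Several genes served the same amino acid, and their proportions were compared library by library. For each amino acid with several genes, the gene with the highest mean FPKM was set over each further gene, 12 pairs over 11 amino acids. For glutamate and glutamine, JGI 492818 named both and entered no pair. The alpha chain of phenylalanyl-tRNA synthetase, JGI 531511, forms one enzyme with the beta chain and was left out of the pairs as well. The most abundant gene was chosen by the mean of all 4 libraries, which favours genes that were high in SIO. A lower ratio in SII is therefore partly set by that choice, and the ratios are a description with no test. For proline, JGI 561575 over JGI 532015 gave 0.960 and 5.76 in SII, against 34.7 and 37.3 in SIO. For valine, JGI 532385 over JGI 604701 gave 0.952 and 2.90 in SII, against 12.3 and 10.5 in SIO. For histidine, JGI 492969 over JGI 537699 gave 1.57 and 2.88 in SII, against 19.7 and 20.1 in SIO. In SII-1, then, the prolyl and the valyl genes of each pair were nearly level, and in SIO they were more than 10 times apart.

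For glycine, JGI 488277 over the mitochondrial JGI 576508 gave 0.552 and 0.614 in SII, against 1.82 and 1.90 in SIO, so the order of the pair was opposite in the 2 areas. In 11 of the 12 pairs both SII ratios lay below both SIO ratios. The exception was asparagine, where JGI 543099 over the cytoplasmic JGI 515774 gave 6.73 and 3.47 in SII, against 1.60 and 1.37 in SIO. The valyl gene JGI 604701, at 3.93 and 4.35 FPKM in SII, against 11.2 and 13.1 FPKM in SIO, was lower in SII too (log2 fold change -1.36 ± 0.19, adjusted p = 0.00802), so both valyl genes passed the test.

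**Figure D3:**
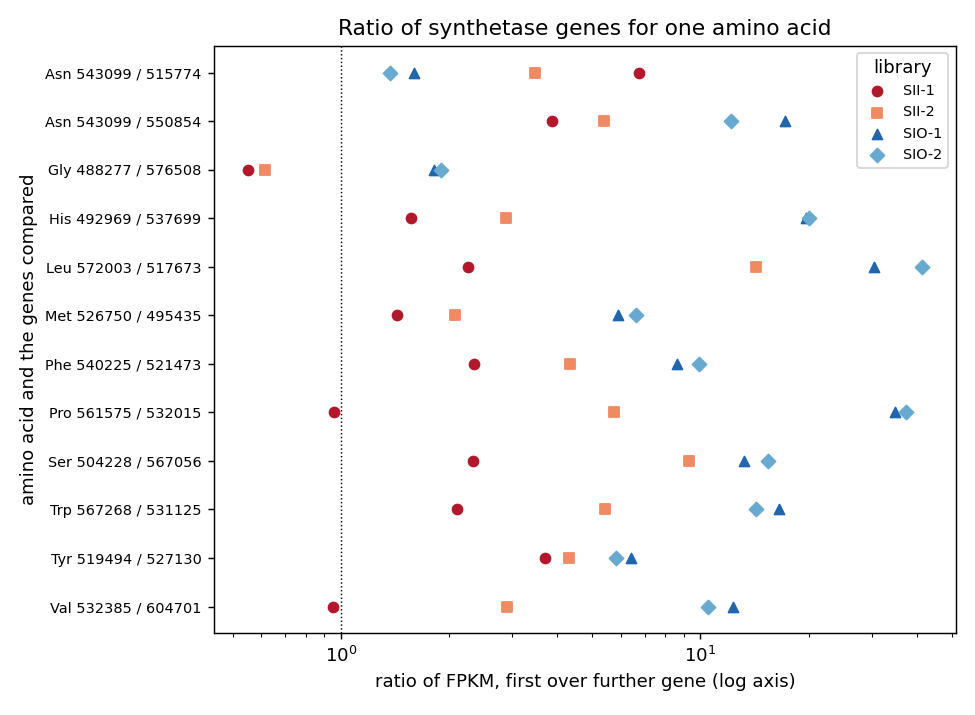
Ratio of FPKM between genes of the same amino acid in each library, the most abundant gene over the further gene, on a log axis with a dotted line at a ratio of 1. In 11 of the 12 rows both SII symbols lie left of both SIO symbols; the row of JGI 543099 over JGI 515774 has the opposite order.

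The synthetase genes were also read between the 2 SII libraries. SII-2 lay above SII-1 in 18 of the 19 called genes and in 8 of the 16 others. Over all 8906 tested genes SII-2 was the higher in 4276, and in 2177 of the 3954 with a mean of at least 30 FPKM. Its ratio to SII-1 over the called genes was between 0.713 and 3.56 with a median of 1.88, and it was at least 2 in 7 of them. Among the called genes, the glycyl JGI 488277 (1.06) and the valyl JGI 604701 (1.11) had SII libraries close together, while among the others the arginyl JGI 479526 (3.32) and the isoleucyl JGI 536787 (0.317) had them far apart. Between the SIO libraries the ratio SIO-2 over SIO-1 ran only from 0.846 to 1.19 over the 19 called genes. Some of the other genes lay outside this range, such as JGI 550854 at 8.35 FPKM in SIO-1 and 12.1 FPKM in SIO-2. Across the 35 genes the log2 fold change and the log2 ratio of SII-2 to SII-1 had a Pearson r of -0.84 and a Spearman rho of -0.90. Across all 8906 tested genes these were -0.39 and -0.42. Both measures share the SII libraries, and genes of a library are not independent, so no p is given. Set against the mean of SIO, the median log2 fold change of the 35 genes was -2.03 with SII-1 alone and -1.82 with SII-2 alone.

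**Figure D4:**
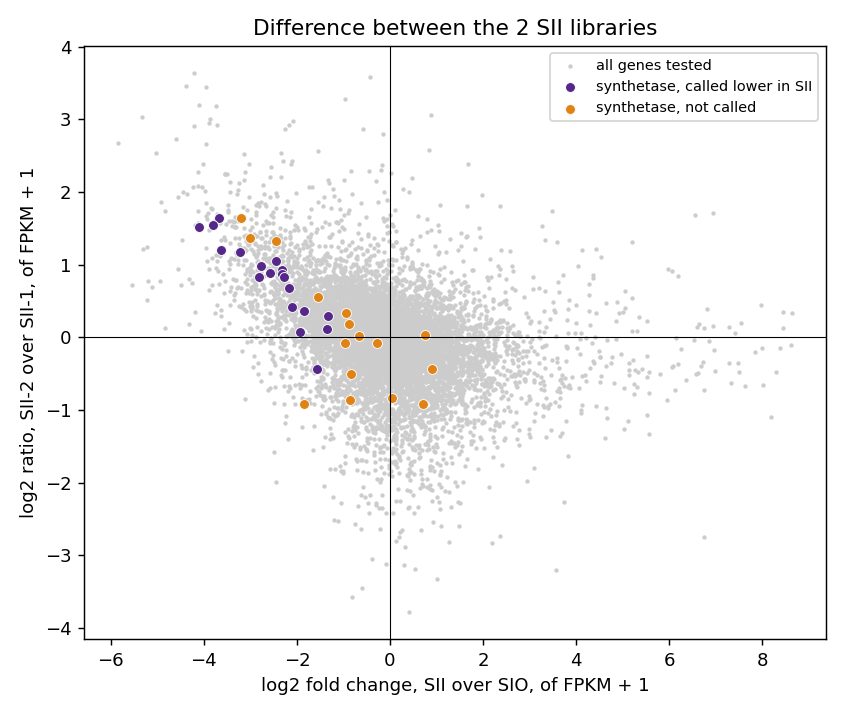
Log2 ratio of SII-2 over SII-1 (vertical) against the log2 fold change of SII over SIO (horizontal), both of FPKM + 1, for all 8906 tested genes in grey, the 19 synthetase genes called lower in purple and the other 16 in orange. The called genes furthest to the left are also among those highest up, and 18 of the 19 lie above the horizontal line at 0.

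Other genes of tRNA handling and of protein synthesis were read from lists made by the wording of their descriptions. Aminoacyl-tRNA is carried to the ribosome by elongation factor 1 in the cytosol and by elongation factor Tu in mitochondria. All 7 delivery genes had negative log2 fold changes and 3 were called lower, with a median of -2.37 over the list. Of all 8906 tested genes, 4827 had negative log2 fold changes and 12.2% were called lower. The elongation factor 1 beta subunit JGI 532027, part of the complex that reloads the factor with GTP, was at 89.2 and 184 FPKM in SII, against 930 and 952 FPKM in SIO (log2 fold change -2.87). The gamma subunit JGI 542329 was at 70.9 and 152 FPKM in SII, against 599 and 638 FPKM in SIO (-2.56). The remaining called gene, JGI 479922, a translation elongation factor Tu, was at 11.4 and 13.2 FPKM in SII, against 67.2 and 67.8 FPKM in SIO (-2.37). Elongation factor 1-alpha, JGI 513695, was not called, at 632 and 1721 FPKM in SII, against 6813 and 7792 FPKM in SIO (-2.80, adjusted p = 0.0146). Another 1-alpha gene, JGI 495983 (-1.17), the subunit gene JGI 196504 (-0.88) and a further Tu gene, JGI 501270 (-0.82), were not called either. Limma-voom called JGI 532027 and JGI 479922 but not JGI 542329. The median log2 fold change over the 7 genes was -2.02 without SII-1, -2.47 without SII-2, -2.38 without SIO-1 and -2.36 without SIO-2.

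Further genes modify tRNA, process it or work on charged tRNA. Of 21 genes with any other description that named tRNA, 0 were higher and 4 lower by limma, with a median log2 fold change of -0.61. Of all tested genes, 10.3% were higher and 12.2% lower. Limma-voom called 0 higher and 3 lower (9.93% and 12.3% of all tested genes). At an unadjusted p under 0.05 by limma, 10 of the 21 had a negative and 3 a positive log2 fold change. Of all tested genes, 33.1% and 25.4% did so. The queuine tRNA-ribosyltransferase JGI 567551, which places a modified base in the anticodon, was at 6.79 and 13.5 FPKM in SII, against 71.2 and 57.8 FPKM in SIO (log2 fold change -2.62). The tRNA-guanine transglycosylase JGI 565145, described for the same reaction, was at 4.82 and 10.2 FPKM in SII, against 42.6 and 43.1 FPKM in SIO (-2.44). The other called genes were JGI 515983, a tRNA methyltransferase of the TRM7 type (-1.52), and JGI 551211, a tRNA-His guanylyltransferase (-1.31), of which limma-voom did not call JGI 551211. Over the 21 genes the median was -0.89 without SII-1, -0.72 without SII-2, -0.56 without SIO-1 and -0.64 without SIO-2.

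Of 6 genes that remove or convert the load of a tRNA, such as peptidyl-tRNA hydrolases, 0 were called in either direction by limma or limma-voom, and 2 had a negative and 0 a positive log2 fold change at an unadjusted p under 0.05, shares that over all tested genes were 33.1% and 25.4%. The most abundant of them, JGI 531541, was at 38.8 and 35.0 FPKM in SII, against 27.5 and 27.0 FPKM in SIO (log2 fold change 0.42). JGI 544645, next in abundance, was at 36.02 and 30.1 FPKM in SII, against 34.1 and 35.3 FPKM in SIO (-0.07).

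Uncharged tRNA is sensed by the kinase Gcn2, and in filamentous fungi a cross-pathway control factor raises amino acid synthesis genes in response. Of the 3 genes of this control in the table, 0 were called in either direction by limma, limma-voom called 0 higher and 1 lower (Gcn2, JGI 609358), and all 3 had a negative log2 fold change with an unadjusted p under 0.05, as 33.1% of all tested genes had. The cross-pathway control gene JGI 554337 was at 1016 and 751 FPKM in SII, against 1504 and 1483 FPKM in SIO (log2 fold change -0.77, adjusted p = 0.0427). JGI 539841, described as GCN3-like, was at 9.37 and 18.96 FPKM in SII, against 41.9 and 42.5 FPKM in SIO (-1.59, adjusted p = 0.0224). Gcn2 was at 2.58 and 3.96 FPKM in SII, against 11.1 and 10.4 FPKM in SIO (-1.48, adjusted p = 0.0103). Over the 3 genes the median log2 fold change was -1.11 without SII-1, -1.72 without SII-2, -1.43 without SIO-1 and -1.53 without SIO-2.

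The ribosome's own proteins were read in the same way. The wording ribosomal protein, without mitochondrial, found 101 genes, of which 98 were tested. It also took in genes that are not cytosolic ribosomal proteins, such as an rRNA methyltransferase (JGI 480940), the assembly factor Loc1 (JGI 562548) and proteins named after the 30S or 50S subunits of bacteria and organelles (JGI 222641, 488620, 533556 and 531881). Of the 98 genes, 2 were lower and 0 higher by limma and by limma-voom. Of all tested genes, limma called 12.2% lower and 10.3% higher, and limma-voom 12.3% and 9.93%. At an unadjusted p under 0.05 by limma, 43 of the 98 had a negative and 10 a positive log2 fold change. Of all tested genes, 33.1% and 25.4% did so. The 6 genes just named were among the 10. The median log2 fold change over the 98 genes was -0.57, and 81 were negative. Both SII libraries lay below both SIO libraries in 69, where 43.9% of all tested genes did so. The called genes were the stalk protein P0, JGI 547482 (log2 fold change -1.42), and JGI 7597 (-1.24). The median over the 98 genes moved with the SII library left out, to -0.31 without SII-1 and -0.81 without SII-2. It was -0.62 without SIO-1 and -0.51 without SIO-2. Of 20 mitochondrial ribosomal protein genes, 2 were higher and 1 lower (JGI 203288, log2 fold change -1.05, not called by limma-voom), with a median of -0.19. Over all tested genes, 10.3% were higher and 12.2% lower by limma. The 2 higher genes were JGI 533990 (log2 fold change 1.53) and JGI 532819 (1.097), proteins of the large subunit. The median log2 fold change over the 20 genes was -0.20 without SII-1, -0.14 without SII-2, -0.17 without SIO-1 and -0.16 without SIO-2. With the length trend removed 0 were called. The difference between these lists and the synthetases was not tested.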

How the data were processed

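RNA of 4 libraries (2 of SII and 2 of SIO) was sequenced as paired-end reads. Reads were aligned to the M. importuna genome with TopHat2, version 2.1.0 in the submitters' processing notes. The program that made the counts and the FPKM is not given in the sources used here. The deposited table holds an FPKM value per gene and library, and the authors' mean scaled read count per area (a signal, since it is averaged and normalised). The table's columns of log2 fold change, p-value and q-value are the authors' own comparison and were not used. Whole reads per library were recovered from the FPKM and the mean counts, and 100% of values came out whole within 0.01 read. Reads are PCR products without molecular identifiers. Coordinates and sequences were not analysed here.

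The test covered the 8906 genes that reached 1 FPKM in 2 or more libraries and was made with limma 3.58.1 (mean-variance trend, R 4.3.3) on log2(FPKM + 1) with area as the only term, Benjamini-Hochberg adjustment over all tested genes, and calls at an adjusted p under 0.01 where the log2 fold change was also 1 or larger in size, as in the study's own rule. All 35 synthetase genes passed the filter, 34 of them in all 4 libraries. The study calls the libraries of an area biological repeats, each a pool of 2 plates of the strain, and gives no more on whether the cultures were grown separately, so p-values measure the spread between these libraries only. Tables and figures were made with Python 3.11.15, pandas 2.3.3, numpy 2.4.6, scipy 1.17.1 and matplotlib 3.10.9. The fits were tested on simulated data. Alternatives were another pseudocount, filters, scalings, p threshold and variance model, a replicate block, limma-voom, removal of a length trend and leaving out each library.

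Every synthetase gene was named, and of each other list the 2 called genes with the largest absolute log2 fold change, or the 2 most abundant where none was called. Other called genes were added where the count was small, and so were the delivery genes that were not called. The members and lists were chosen with earlier results of these data known. Enzyme classes were assigned from the amino acid named.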

Additional observations from a re-analysis of the deposited data

How the results depend on the processing

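Against 19 synthetase genes lower and 0 higher, the alternatives gave 16 lower with a pseudocount of 0.1, 20 of 29 with a filter at 10 FPKM, 12 with median-ratio scaling, 15 with quantile normalization, 17 without the variance trend, 14 with the length trend removed, 24 at an adjusted p under 0.05, 19 with limma-voom, and 0 lower with no filter, where 30 still had a negative and 1 a positive log2 fold change at an unadjusted p under 0.05 by limma; 0 were higher in each of these. Leaving out a library gave 0 to 26 lower and 0 to 2 higher, the lone library being assumed to vary like the other area. The median log2 fold change of -1.93 was -2.17 with a pseudocount of 0.1, -2.28 with the filter at 10 FPKM, -2.18 with limma-voom and -1.69 with the length trend removed, and between -2.06 and -1.82 without a library. Over all genes, 1084 lower and 914 higher became 0 and 0 with no filter, 1876 and 1386 at an adjusted p under 0.05, 743 and 981 with median-ratio scaling, 768 and 977 with the length trend removed, and 2 to 2133 and 76 to 1778 without a library. Removing the length trend moved the median of all genes by 0.14 on the log2 scale, and relative to that shift the synthetases stayed lower. JGI 532015, whose SII and SIO libraries overlapped, changed sign: its log2 fold change was -0.38 when SII replicate 1 was left out and 0.46 when SII replicate 2 was. A replicate block on the column numbers gave 23 lower and 0 higher; deviations of same-numbered libraries correlated at 0.20 over 8906 genes, but with 2 pairs the numbers were not taken to pair the libraries. Calls of 11 synthetase genes held under every alternative other than no filter and leaving out a SIO library (JGI 479019, 505208, 512863, 492818, 488277, 521054, 526750, 561575, 504228, 567268 and 532385). The causes of these changes were not tested. As for depth, the fewest reads of any synthetase gene were 122 in SII-1 and 49 in SII-2, against 309 in SIO-1 and 250 in SIO-2.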

Other observations

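The authors' mean scaled read count of SIO could not be made from the 2 SIO columns alone. The remainder came out as whole reads, within 0.01 read, for 100% of genes, as a further SIO library of 21730888 reads. In it, FPKM of the 19 synthetase genes called lower was above both SII libraries in all 19, and 0.595 to 1.19 times the mean of the 2 SIO libraries, with a median of 0.9201 (0.904 over all tested genes). It lay below both SIO libraries in 23 of the 35 synthetase genes, between them in 3 and above both in 9. The 19 genes were called because SIO exceeded SII, so their count above SII is largely set by that choice. Among the genes not called, JGI 550854, 537699, 517673, 532015, 567056 and 486196 were not above both SII libraries in it. No label names this library, so it entered no test and these values are a description.

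Longer genes had more negative log2 fold changes, with a Spearman rho of -0.19 over 8906 genes and -0.31 over the 35 synthetase genes, whose lengths were 0.877 to 2.65 times the median of the tested genes. These are correlations across genes of the same libraries, given as a description.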
